A study of Mus musculus with 6 samples.

Results

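The terminal complement genes of liver were described here across Cyp2e1-/- and Cyp2e1+/+ mice. The group holds 10 of the 15960 genes of the deposited table: 7 that encode components of the membrane attack complex (Hc, C6, C7, C8a, C8b, C8g and C9) and 3 that encode inhibitors of it (Cd59a, Vtn and Clu). It was chosen from the measured difference of C8a between the genotypes, and the other 9 genes were added for their place in the same pathway. The genotype difference of the members is therefore given as a description, with no p-value for any of them. Calls of members by the fit over all genes are given as counts with the genes named, also as description only. C5, the component that opens the terminal pathway, is listed under its mouse gene name Hc, for hemolytic complement.

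Liver RNA was sequenced in 3 samples of Cyp2e1-/- mice (the knockout) and 3 samples of Cyp2e1+/+ mice (the wild type), all labelled as strain C57BL/6 and 22 weeks of age. All had been on high-fat diet for 14 weeks per the design of the series, so no group on another diet is part of the comparison. The enzyme CYP2E1 is made mainly in hepatocytes, where it oxidizes ethanol and other small compounds, and the comparison asks which liver transcripts differ in its absence. The sources used here do not say how the knockout allele was made, in which strain, or whether the mice were male or female.

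Complement is a cascade of plasma proteins, most of them made by hepatocytes. Once C5 is cleaved, its larger fragment gathers C6 and C7, the complex binds C8 at the target membrane, and C8 in turn recruits copies of C9 that close into a pore. C8 is built of an alpha chain (C8a) and a beta chain (C8b), both relatives of C6, C7 and C9 in the perforin-like family, and a gamma chain (C8g), a small lipocalin that is bound to the alpha chain. CD59, a membrane protein of host cells encoded in mouse by Cd59a and Cd59b, blocks the assembly of C9, while vitronectin (Vtn) and clusterin (Clu) keep assembling complexes in plasma from inserting into membranes.

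The largest contrast lay between the alpha and beta genes of C8, which are neighbours. C8b (gene 110382, GRCm38, chr4:104766317-104804548) runs on the plus strand and C8a (gene 230558, chr4:104815679-104876487) on the minus strand, so that their 3′ ends face each other across 11131 bases and the outer ends of their gene records lie 110170 bases apart. Sequence before each gene is shown because the 2 genes, although adjacent, are read from opposite outer ends and differed in opposite directions. RefSeq promoter windows (build GRCm38.p6) hold the 250 bases before a listed start. For C8b this start is base 104766317, the 5′ end of its gene record. For C8a it is base 104876398, which lies 89 bases inside its gene record. Printed are the 161 bases of the C8a window outside the gene record, chr4:104876488-104876648 on the minus strand, and the whole C8b window, chr4:104766067-104766316 on the plus strand. Both are written 5′ to 3′ on the strand of the gene, and capitals mark matches to GTTAAT, part of the binding site of the hepatocyte factor HNF1, on either strand.
C8a: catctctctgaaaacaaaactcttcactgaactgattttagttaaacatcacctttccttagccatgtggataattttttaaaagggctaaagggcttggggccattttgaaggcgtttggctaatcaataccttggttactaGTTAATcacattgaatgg
C8b: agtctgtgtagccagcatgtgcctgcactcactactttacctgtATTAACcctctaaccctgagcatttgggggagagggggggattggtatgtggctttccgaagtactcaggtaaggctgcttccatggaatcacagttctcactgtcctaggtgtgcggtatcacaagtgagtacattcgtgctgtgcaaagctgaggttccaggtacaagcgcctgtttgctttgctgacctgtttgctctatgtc

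C8a held GTTAAT at bases -107 to -102 from its listed start, which is -18 to -13 from the 5′ end of its gene record. C8b held it on the other strand at bases -206 to -201. This word was found in 6.43% of 32851 RefSeq promoter windows of 250 bases, and in 5 of the 9 members with a window (C8a, C8b, C7, Hc and Vtn; Clu had none in the table). Of 4 other motifs searched on both strands, the C8a and C8b windows held none. These were TATAAA (the TATA box, 12.37% of all windows), TTGCNNAA (C/EBP, 9.56%), TGTTTAC (FOXA, 3.17%) and CAAAGTCCA (HNF4, 0.38%). GTTAAT was thus the only one of the 5 motifs in the C8a and C8b windows, and a match in these letters was not tested for binding.

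The libraries summed to 562590 to 624264 FPKM (fragments per kilobase of transcript per 1000000 fragments), and low values of genes with a transcript of known length put 1 FPKM at about 9.34 to 12.2 fragments per kilobase of transcript. Cyp2e1 itself, the check of the labels, stood at 247 to 271 FPKM in the knockout libraries and 5942 to 7427 FPKM in the wild type libraries. The knockout and wild type libraries were compared with limma on log2(FPKM + 1) over the 9968 genes that reached 1 FPKM in 3 or more libraries, and a gene was called at an adjusted p (Benjamini-Hochberg) under 0.05. This called 47 genes as higher and 29 as lower in the knockout. Without replicate 1 of both genotypes 1183 genes were called. Knockout replicate 1 held 37.7% of its FPKM in its 10 most abundant genes, against 32.5% to 33.5% in the other 5 libraries. Summed hepatocyte markers (7 of 8 listed genes in the table, such as Alb and Apoa1) were at 45903 to 53592 FPKM in the knockout and 42111 to 48724 FPKM in the wild type, and none of the 7 was called. These sums rested mostly on Alb. Cps1 (677 ± 49.7 FPKM in the knockout, 463 ± 85.9 FPKM in the wild type) and Ass1 (1700 ± 91.5 FPKM in the knockout, 1386 ± 128 FPKM in the wild type) were higher in every knockout library. Ranges were apart in 15.4% of all tested genes, and those of the other hepatocyte markers overlapped. No marker list of another cell type had every gene at 0. The sums of the stellate cell list (82.0 to 86.6 FPKM in the knockout, 90.4 to 104.9 FPKM in the wild type) and of the cholangiocyte list (18.9 to 21.7 FPKM in the knockout, 25.4 to 32.4 FPKM in the wild type) did not overlap. The first rested mostly on Dcn (63.0 ± 1.04 FPKM in the knockout, 73.8 ± 8.69 FPKM in the wild type) and the second on Spp1 (18.3 ± 1.35 FPKM in the knockout, 27.0 ± 4.44 FPKM in the wild type). Other genes of these lists had the higher mean in the knockout, among them Col3a1 (2.30 FPKM in the knockout, 1.82 FPKM in the wild type) and Sox9 (0.683 FPKM in the knockout, 0.34 FPKM in the wild type), with ranges that overlapped. The sums of endothelium, lymphocytes and neutrophils, red cells, adipose tissue and pancreas overlapped, and 1 red cell gene of all these lists was called. This was Alas2, lower in the knockout (9.43 ± 0.86 FPKM in the knockout, 47.9 ± 3.30 FPKM in the wild type). The red cell genes Hba-a1 and Hba-a2 overlapped between the genotypes. The part of these cell types in the values of the members was not tested.

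C8a was nearly silent in wild type liver and abundant in the knockout. It stood at 189, 232 and 231 FPKM in knockout replicates 1, 2 and 3, against 1.05, 1.32 and 1.70 FPKM in wild type replicates 1, 2 and 3. Every knockout library lay more than 100-fold above every wild type library, and the spread within a genotype was small beside that gap. The means were 217 ± 24.6 FPKM in the knockout and 1.36 ± 0.33 FPKM in the wild type (SD, n = 3 each), a ratio of 160, and the difference on the log2(FPKM + 1) scale was 6.54 (SE 0.15). In order of mean FPKM, C8a was number 314 of 15960 genes in the knockout and number 9254 in the wild type. At the estimated depths the wild type values stand for about 18.6 to 57.5 fragments per library, depending on which C8a transcript is taken (1993 to 3617 bases), and the knockout values for about 4128 to 8114. The wild type level was thus low but not at 0. No 31-base word of the C8a transcripts of GENCODE M21 occurs in a transcript of another gene. The transcript that the authors list as new is not part of that search.

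C8b went the other way. It stood at 100.25, 111 and 103 FPKM in knockout replicates 1, 2 and 3, against 186, 247 and 246 FPKM in wild type replicates 1, 2 and 3. All knockout libraries lay below all wild type libraries, with wild type replicate 1 the nearest of these. The means were 105 ± 5.57 FPKM in the knockout and 226 ± 34.6 FPKM in the wild type, so that the knockout held 46.3% of the wild type level, and the log2 difference was -1.09 (SE 0.14). C8b shared no 31-base word with other genes either. The deposited table lists 1 transcript named as new by the authors for C8a and 1 for C8b, beside 3 and 2 RefSeq transcripts, and whether these new transcripts differ between the genotypes is not shown by a gene-level table.

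C8g, the gamma chain, lies apart from them (gene 69379, chr2:25498650-25501777). It stood at 280.5, 329 and 307 FPKM in knockout replicates 1, 2 and 3, against 375, 288 and 300.2 FPKM in wild type replicates 1, 2 and 3. The genotypes overlapped, with wild type replicate 1 highest of all 6 libraries. The means were 305 ± 24.4 FPKM in the knockout and 321 ± 47.2 FPKM in the wild type (log2 difference -0.07, SE 0.14). Without replicate 1 of both genotypes the sign turned (0.11, SE 0.064). C8g shares 2.43% of its 31-base words with Dab1, which was below 1 FPKM in every library.

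**Figure D1:**
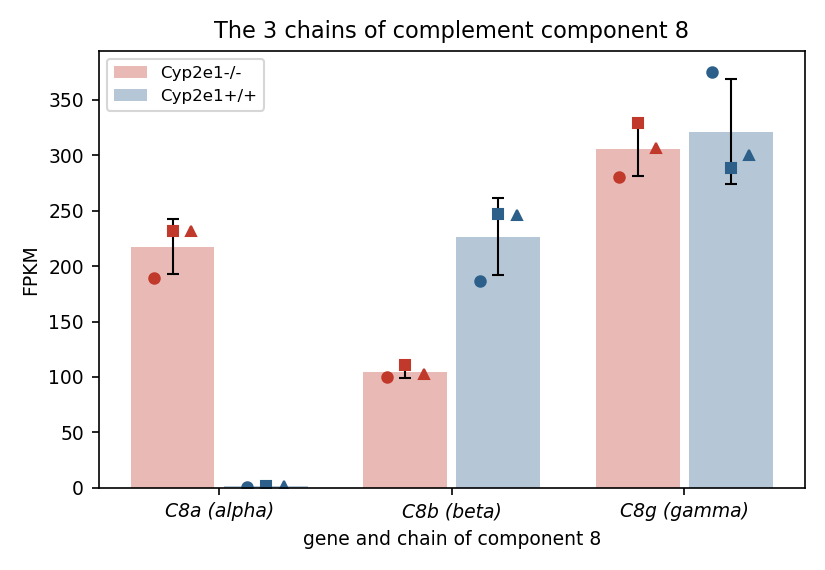
FPKM (linear axis) of the genes of the alpha, beta and gamma chains of C8 in Cyp2e1-/- (red, left of each pair) and Cyp2e1+/+ liver (blue), with bars for the mean, error bars for the SD (n = 3) and a circle, square and triangle for replicates 1, 2 and 3. C8a averaged 217 FPKM in Cyp2e1-/- and 1.36 FPKM in Cyp2e1+/+ liver, C8b 105 FPKM in Cyp2e1-/- and 226 FPKM in Cyp2e1+/+ liver, and C8g 305 FPKM in Cyp2e1-/- and 321 FPKM in Cyp2e1+/+ liver.

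FPKM are per length of transcript, so the 3 chains can be set against each other within a library. The level of C8a was 1.88, 2.09 and 2.25 times that of C8b in knockout replicates 1, 2 and 3, against 0.00563, 0.00535 and 0.00692 times in wild type replicates 1, 2 and 3. The alpha transcript thus outnumbered the beta transcript in every knockout library and was below 1 percent of it in every wild type library. On the log2 scale the ratio of C8a to C8b averaged 1.05 ± 0.13 in the knockout and -7.40 ± 0.20 in the wild type (SD, n = 3 each), a difference of 8.45. Against C8g, C8a stood at 0.674, 0.704 and 0.755 times in the knockout replicates and 0.0028, 0.00458 and 0.00566 times in the wild type replicates. The ratio of C8b to C8g was 0.357, 0.337 and 0.336 in the knockout replicates and 0.496, 0.856 and 0.819 in the wild type replicates. It was close to constant over the knockout libraries, while wild type replicate 1 lay between them and the other wild type libraries. None of these ratios was tested, since C8a was selected on its difference.

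RefSeq annotates 17 further genes within 1 Mb of the ends of C8a, of which 5 were in the table and 4 passed the filter on low values. Of these the fit called 1, the member C8b, against 0.762% of all tested genes called. The gene 1700024P16Rik, named Fyb2 in RefSeq, overlaps the 5′ part of C8a on the opposite strand in that annotation and runs on beyond its start. It stood at 1.17, 1.20 and 1.37 FPKM in the knockout replicates and 1.41, 2.10 and 2.05 FPKM in the wild type replicates, lower in every knockout library, with a log2 difference of -0.34 (SE 0.16; limma, adjusted p = 0.54). No 31-base word of the C8a transcripts of GENCODE M21, read on either strand, occurs in a transcript of another gene. Exons listed there thus share no stretch of that length. The sources used here do not say whether strand entered the counting. Reads of introns, or of transcripts the authors list as new, in the overlap of 1700024P16Rik and C8a thus cannot be told apart. Prkaa2, a catalytic subunit of the energy sensor AMPK, averaged 5.85 ± 1.06 FPKM in the knockout and 6.65 ± 2.16 FPKM in the wild type (log2 difference -0.13, SE 0.23; limma, adjusted p = 0.93). Plpp3, a lipid phosphate phosphatase, averaged 62.5 ± 7.41 FPKM in the knockout and 58.8 ± 5.14 FPKM in the wild type (log2 difference 0.08, SE 0.13; limma, adjusted p = 0.92). On the far side of C8b, Dab1, an adaptor of reelin signalling, was below the filter at 0.19 to 0.48 FPKM in the knockout and 0.63 to 0.95 FPKM in the wild type, without overlap. Of all tested genes 15.4% had ranges apart, as 1700024P16Rik did.

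**Figure D2:**
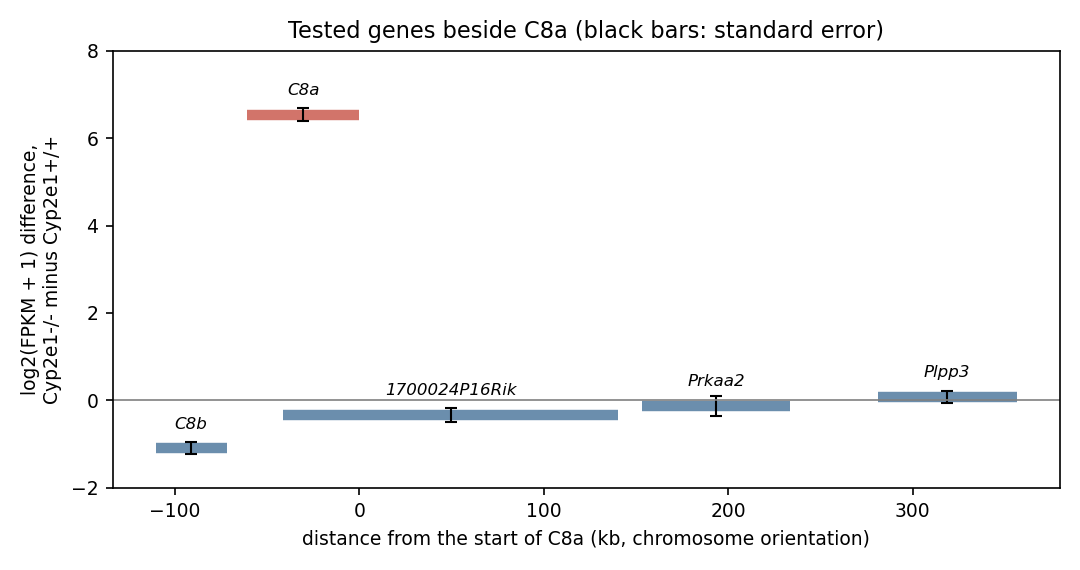
Log2(FPKM + 1) difference, Cyp2e1-/- minus Cyp2e1+/+, of the 5 tested genes around C8a against the distance from the start of C8a in kb; horizontal bars span each gene and black bars show the standard error. C8a stood at 6.54, C8b at -1.09, and the other 3 genes between -0.34 and 0.08.

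Among the components that act before C8, C6 had lower values in every knockout library and Hc overlapped between the genotypes. C6 (gene 12274, chr15:4727067-4804045), which binds the C5 fragment, stood at 63.6, 69.7 and 71.7 FPKM in knockout replicates 1, 2 and 3, against 83.5, 107 and 108 FPKM in wild type replicates 1, 2 and 3. The genotypes did not overlap. C6 averaged 68.3 ± 4.24 FPKM in the knockout and 99.6 ± 13.9 FPKM in the wild type, 68.6% of the wild type level, with a log2 difference of -0.53 (SE 0.13). Hc (gene 15139, chr2:34983329-35068506) stood at 132, 143 and 144 FPKM in the knockout replicates, against 123, 171 and 171 FPKM in the wild type replicates. The knockout libraries lay between wild type replicate 1 and the other wild type libraries, and the log2 difference of Hc was -0.13 (SE 0.15). C7 (gene 109828, chr15:4987750-5063773), which anchors the complex to the membrane, was barely detected, at 0.19, 0.76 and 0.28 FPKM in the knockout replicates and 0.04, 0.38 and 0.20 FPKM in the wild type replicates. These stand for about 6.0, 18.7 and 6.8 fragments in the knockout and 1.0, 9.7 and 5.0 fragments in the wild type, and C7 did not pass the filter. The genotypes overlapped.

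C9, the pore-forming component (gene 12279, chr15:6445346-6498825), stood at 217, 246 and 239 FPKM in the knockout replicates, against 186, 276 and 280 FPKM in the wild type replicates. As for Hc, the knockout libraries lay between wild type replicate 1 and the other wild type libraries. C9 averaged 234 ± 15.0 FPKM in the knockout and 247 ± 53.0 FPKM in the wild type, a log2 difference of -0.06 (SE 0.16). C6, C7 and C9 lie on chromosome 15 within 1771758 bases, with C6 and C7 183705 bases apart, and of the 3 only C6 had ranges that did not overlap between the genotypes.

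**Figure D3:**
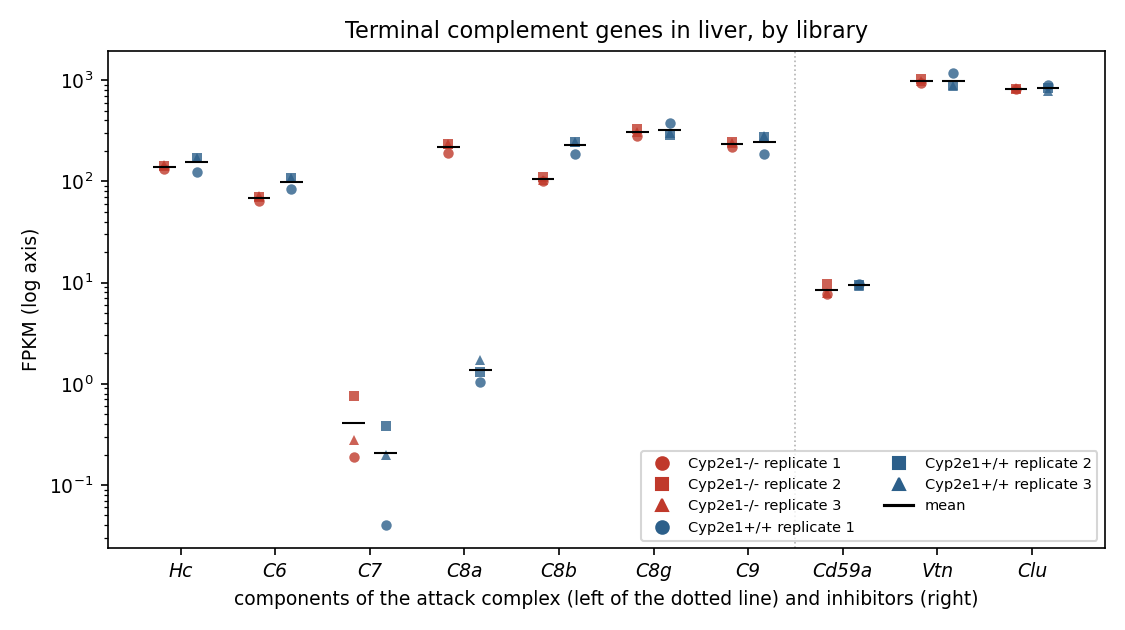
FPKM (log axis) of the 10 terminal complement genes in each library, with Cyp2e1-/- in red to the left of Cyp2e1+/+ in blue for every gene, symbols for the replicates and a black line for the mean. C8a in Cyp2e1+/+ liver (1.05 to 1.70 FPKM) and C7 in both genotypes (0.04 to 0.76 FPKM) lie below the other genes.

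The values of all 3 inhibitors overlapped between the genotypes, where ranges were apart in only 15.4% of all tested genes. Vtn (gene 22370, chr11:78499120-78502325) stood at 947, 1030.4 and 977 FPKM in the knockout replicates, against 1168, 905 and 885 FPKM in the wild type replicates, a log2 difference of 0.01 (SE 0.14). Clu (gene 12759, chr14:65968483-65981548) stood at 812, 827 and 829 FPKM in the knockout replicates, against 895, 830.45 and 789 FPKM in the wild type replicates, a log2 difference of -0.02 (SE 0.12). In both genes the wild type range enclosed the knockout range. Cd59a (gene 12509, chr2:104095753-104115410) stood at 7.67, 9.65 and 7.87 FPKM in the knockout replicates, against 9.73, 9.40 and 9.20 FPKM in the wild type replicates, a log2 difference of -0.16 (SE 0.14). Its ranges overlapped through knockout replicate 2. Cd59a shares 9.39% of its 31-base words with other genes, mostly with its copy Cd59b, which was listed at 0 in 5 of the 6 libraries and at 0.43 FPKM in wild type replicate 2.

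The order of the members by mean level was Vtn, Clu, C8g, C9, C8a, Hc, C8b, C6, Cd59a and C7 in the knockout, and Vtn, Clu, C8g, C9, C8b, Hc, C6, Cd59a, C8a and C7 in the wild type. C8a thus held place 5 in the knockout and place 9 in the wild type, and C8b place 7 in the knockout and place 5 in the wild type. Neighbours whose ranges over libraries overlapped were C9 and C8a in the knockout, and Vtn with Clu and C9 with C8b in the wild type. Apart from C7, the lowest component transcript was C6 in the knockout and C8a in the wild type.

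Of the 10 members 9 passed the filter, and the fit over all genes called 2 of them, C8a as higher and C8b as lower in the knockout, against 0.762% of all tested genes called. Ranges of the 2 genotypes were apart in 3 of the 9 (C8a, C8b and C6), against 15.4% of all tested genes. The median log2 difference over the 9 was -0.07, beside -0.03 over all tested genes. As C8a chose the group in this same contrast, nothing is read from these counts or from those that follow. With the pair of replicate 1 libraries left out, 4 members were called, C8a as higher and C8b, C6 (log2 difference -0.60, SE 0.07) and Hc (-0.25, SE 0.06) as lower, against 11.9% of all tested genes. C6 was also called when wild type replicate 1 alone was left out (-0.65, SE 0.11), beside 117 of the 9968 tested genes.

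Within each genotype replicate 1 was the low library for most component genes. Hc, C6, C7, C8a, C8b and C9 were each lowest in replicate 1 of both genotypes, 6 of 10 members, which also held for 3186 of 9968 tested genes (32.0%). For these genes the shortfall was larger in the wild type. Relative to the mean of its genotype, C9 stood at 0.928 in knockout replicate 1 and 0.753 in wild type replicate 1. In the same libraries Hc stood at 0.945 in the knockout and 0.794 in the wild type, C8a at 0.869 in the knockout and 0.774 in the wild type, C8b at 0.957 in the knockout and 0.823 in the wild type, and C6 at 0.930 in the knockout and 0.838 in the wild type. C8g and Vtn were at their lowest in knockout replicate 1 (0.918 and 0.962) and at their highest in wild type replicate 1 (1.17 and 1.18). Wild type replicate 1 thus held less of the pore-forming family and of Hc, and more of C8g and Vtn, than the other wild type libraries.

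**Figure D4:**
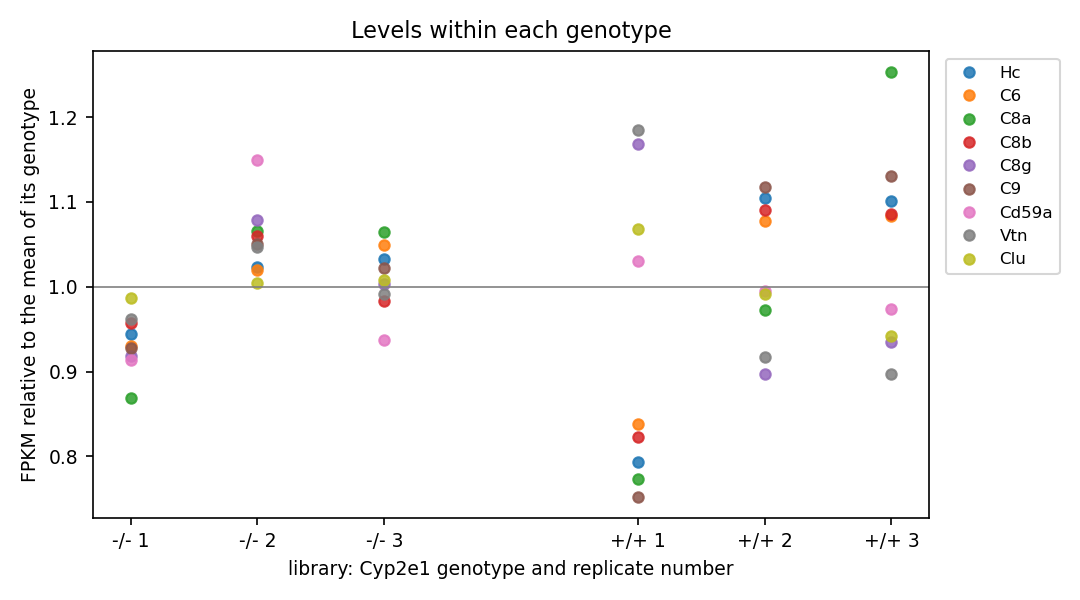
FPKM of 9 terminal complement genes (C7 left out for its low level) relative to the mean of the gene in its genotype, for each Cyp2e1-/- library (left) and Cyp2e1+/+ library (right). In Cyp2e1+/+ replicate 1 C9, C8a, Hc, C8b and C6 stood at 0.753 to 0.838 and C8g and Vtn at 1.17 and 1.18.

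Outside the terminal pathway no listed complement gene was called. Of 46 other complement genes listed, 41 were in the table and 32 passed the filter, and 0 of the 32 were called as higher or lower (limma), against 0.762% over all tested genes. At an unadjusted p under 0.05 there were 5 of the 32, all lower in the knockout, beside 990 of the 9968 tested genes, and 75.0% of the 32 had a negative log2 difference, beside 55.8% of all tested genes. The medians were -0.13 for the 32 and -0.03 for all tested genes. Without replicate 1 of both genotypes 11 of the 32 were called, 2 as higher (C2 and Susd4) and 9 as lower (C1qb, C1qc, Mbl2, Cfi, Cpb2, Serping1, Cd55, Itgb2 and Vsig4), against 11.9% of all tested genes. Without knockout replicate 1 alone 2 were called, Cpb2 and Vsig4, both lower, beside 211 of the 9968 tested genes.

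Of 15 tested genes that start the classical and lectin pathways, 10 had a negative difference and 5 a positive one, beside 55.8% negative over all tested genes. Their median was -0.07, beside -0.03 over all tested genes. C4b, which with C2 forms the C3-cleaving enzyme of these pathways, averaged 238 ± 13.8 FPKM in the knockout and 212 ± 20.2 FPKM in the wild type (log2 difference 0.17, SE 0.12; limma, adjusted p = 0.71). C4b has a near copy in C4a, between which reads can be split, so its values are uncertain. Mbl2, a mannose-binding lectin, stood at 198, 171 and 153 FPKM in the knockout replicates and 240.5, 213 and 222 FPKM in the wild type replicates, without overlap (log2 difference -0.38, SE 0.13; limma, adjusted p = 0.33). The ranges of all 3 tested genes of C3 and the alternative pathway overlapped, where ranges were apart in only 15.4% of all tested genes. C3, whose cleavage all pathways share, averaged 778 ± 18.0 FPKM in the knockout and 861 ± 73.0 FPKM in the wild type (log2 difference -0.14, SE 0.12; limma, adjusted p = 0.78). Cfb, the protease of the alternative pathway, averaged 317 ± 24.9 FPKM in the knockout and 313 ± 5.89 FPKM in the wild type (log2 difference 0.01, SE 0.11; limma, adjusted p = 0.99).

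Of 12 tested regulators other than the members, 10 had a negative difference, beside 55.8% of all tested genes. Their median was -0.16, beside -0.03 over all tested genes. Serping1, the inhibitor of C1, averaged 391 ± 68.3 FPKM in the knockout and 436 ± 22.6 FPKM in the wild type (log2 difference -0.17, SE 0.14; limma, adjusted p = 0.77). Cfhr2, a relative of factor H, averaged 335 ± 18.0 FPKM in the knockout and 363 ± 32.1 FPKM in the wild type (log2 difference -0.11, SE 0.12; limma, adjusted p = 0.84). Of 8 receptor genes 2 passed the filter. Vsig4, a complement receptor of Kupffer cells, stood at 17.1, 9.13 and 7.69 FPKM in the knockout replicates and 13.9, 15.6 and 19.2 FPKM in the wild type replicates (log2 difference -0.55, SE 0.25; limma, adjusted p = 0.51). Itgb2, the shared beta chain of the leukocyte complement receptors, stood at 3.26, 1.85 and 1.29 FPKM in the knockout replicates and 3.12, 4.19 and 3.36 FPKM in the wild type replicates (log2 difference -0.58, SE 0.23; limma, adjusted p = 0.41). In both receptor genes knockout replicate 1 lay among the wild type libraries and knockout replicates 2 and 3 below them. Over 7 Kupffer cell and macrophage markers (Clec4f and others, none at 0 in all libraries, Vsig4 among them) the summed level was 64.3 to 126 FPKM in the knockout and 121 to 137 FPKM in the wild type, and 6 of the 7 had a negative difference with none called. The part of these cells in the receptor and C1q values was not tested, and in whole liver fewer cells of a type and less RNA per cell cannot be told apart.

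**Figure D5:**
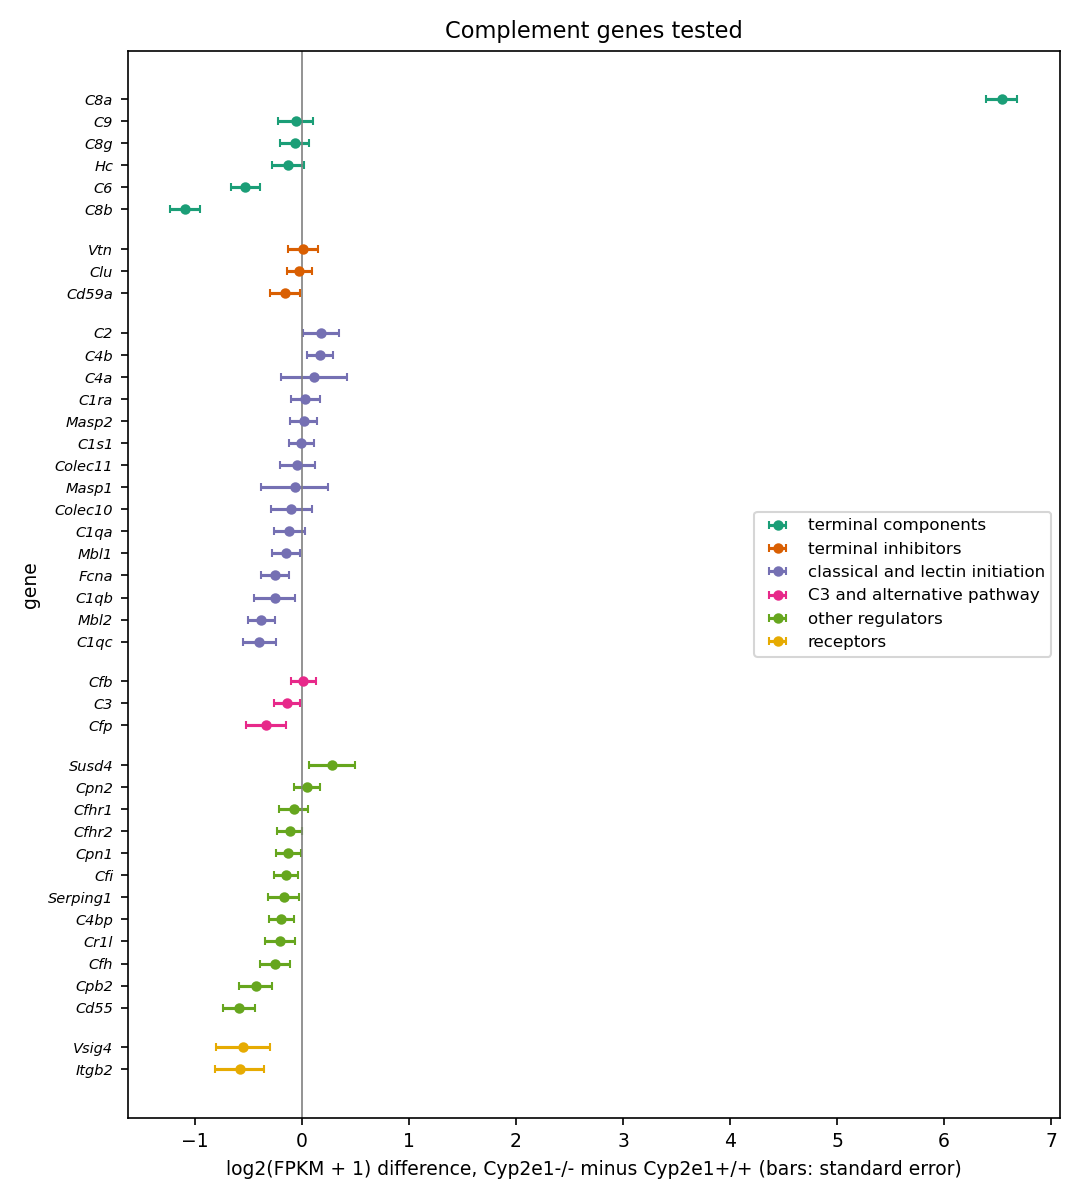
Log2(FPKM + 1) difference, Cyp2e1-/- minus Cyp2e1+/+, of all tested complement genes by functional list (colours), with bars for the standard error. C8a at 6.54 and C8b at -1.09 lie apart; the 32 genes outside the terminal pathway lie between -0.58 and 0.28.

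The patterns over the 6 libraries most like that of C8a were sought among all tested genes. By the Euclidean distance between log2(FPKM + 1) values, each gene centred on its own mean, the nearest of the 9967 other tested genes were Zfp970 (distance 3.36), Gm14327 (4.03), Mt2 (4.78), Gm14403 (4.89) and Ccl27a (5.35). The values were not scaled, and C8a had the highest difference of all tested genes. The order of the 5 therefore follows the size of their own rise in the knockout (log2 difference 3.81, 3.28, 2.73, 2.57 and 2.24). It is no result apart from that rise. Zfp970, a zinc-finger gene, averaged 16.7 ± 2.50 FPKM in the knockout and 0.26 ± 0.095 FPKM in the wild type, and Mt2, a metallothionein gene, 171 ± 28.7 FPKM in the knockout and 25.7 ± 9.61 FPKM in the wild type. Zfp970, Gm14327 and Gm14403 lie together on chromosome 2 (177464742 to 177927850), and reads of such repeated genes can be split among copies, so their values are uncertain. None of the 5 lies within 1 Mb of C8a. Of the 40 other tested complement genes the nearest to C8b were Cd55 (distance 0.645), C6 (0.70) and Itgb2 (0.96). Cd55, which breaks up the C3-cleaving enzymes on host cells, stood at 1.88, 2.27 and 2.11 FPKM in the knockout replicates and 3.20, 3.85 and 3.85 FPKM in the wild type replicates, without overlap (log2 difference -0.58, SE 0.15; limma, adjusted p = 0.15).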

How the data were processed

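Total RNA of 6 liver samples was made into Illumina TruSeq libraries, per the labels' protocols. The submitters' processing notes name HISAT and mm10; which program computed expression is not stated there. The authors deposited FPKM, per the file headers, with 1 column per library. Counts were not used.

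Knockout was compared with wild type by limma 3.58.1 (eBayes with an intensity trend, R 4.3.3) on log2(FPKM + 1), with genes at 1 FPKM or more in at least 3 libraries and Benjamini-Hochberg adjustment over 9968 genes. On this scale the change of a gene at low FPKM is understated. The fit was also run on simulated data with independent noise in every library. Those data held no shared shift of replicate 1, so that run cannot show how calls behave in these libraries. The members, the 4 lists of other complement genes and the tests were chosen with earlier results of these data known. Named genes outside the members are those called, or else the 2 most abundant tested genes of each list, the nearest tested gene on each side of C8a, and the 5 genes nearest to C8a and 3 nearest to C8b in pattern. Prkaa2, Plpp3, Dab1, Cfi, Cpb2, C1qb, C1qc, C2 and Susd4 were named after their values were seen. The same holds for the marker genes Dcn, Spp1, Col3a1, Sox9, Alas2, Hba-a1, Hba-a2, Clec4f, Cd68, Cps1 and Ass1.

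Depth was estimated from the steps of low FPKM, with 100 bases taken off each transcript length: 73.8% to 78.8% of 567 to 614 values per library lay within 0.15 of a whole fragment (30% would by chance), the step being fitted to those values. Positions are from RefSeq, GRCm38, which matched all 10 members by gene identifier. Same-numbered libraries deviated together from their group means (r = 0.30, 0.20 and 0.16 over tested genes for numbers 1, 2 and 3, taken from the titles), though knockout 3 correlated more with wild type 2 (0.21) than with wild type 3, and the replicate number was a block in an alternative. The labels do not say how samples were paired or that each came from a separate animal, so p-values cover only the spread between these libraries.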

Additional observations from a re-analysis of the deposited data

How the results depend on the processing

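The alternatives were a pseudocount of 0.1, no filter on low values, libraries rescaled to sum to 1000000, quantile normalization, the replicate number as a block, no replicate 1 of both genotypes, and each library left out in turn. The count of called genes, 76, was 32 without the filter, 1183 without replicate 1 of both genotypes, and 29 (no knockout replicate 2) to 211 (no knockout replicate 1) with a library left out, moving by over 1.5 times for each of the 6. Called members, 2, were 4 without replicate 1 of both genotypes and 2 to 3 with a library left out. Other complement genes, none called, were 11 and 0 to 2 in those settings. C8b was the called neighbour of C8a throughout. With the replicate block 72 genes, 2 members (C8a and C8b again) and no other complement gene were called. Apart from Vsig4, calls of the marker genes were not looked at in any of the alternatives. The difference in the log2 ratio of C8a to C8b was 8.37 to 8.56, of C8a to C8g 7.12 to 7.63 and of C8b to C8g -1.29 to -0.89 with a library left out. Small differences that were not called changed sign: C8g (0.11) and Clu (0.033) without replicate 1 of both genotypes, and with a library left out C8g (-0.14 to 0.051), C9 (-0.25 to 0.043), Vtn (-0.063 to 0.14), Clu (-0.067 to 0.024), Cfb (-0.034 to 0.078), Prkaa2 (-0.39 to 0.013) and Plpp3 (-0.00041 to 0.17). Without a change of sign, leaving out a library moved these differences, not called over all 6 libraries, by over 1.5 times: Hc (-0.29 to -0.05), Cd59a (-0.25 to -0.10), C4b (0.09 to 0.23), C3 (-0.20 to -0.08), Serping1 (-0.31 to -0.10), Cfhr2 (-0.17 to -0.05), Vsig4 (-0.86 to -0.34) and Itgb2 (-0.83 to -0.38). The cause was not tested. Depth limits C7, which rests on about 1.0 to 18.7 fragments per library.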
